A study of Mus musculus with 2 samples.

Results

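Left atrial-labelled (LA) cells were the cells that the deposited per-cell table assigned to the left atrium and that held at least 1000 gene UMIs (unique molecular identifiers, each marking 1 captured RNA molecule) and 500 genes. Of 71 cells with that label, 56 passed, out of 281 that passed among the 332 labelled cells of all 4 chambers. The cells came from adult wild-type C57BL/6 mice aged about 3 months, without ethanol fixation, and were labelled as cardiomyocytes of the left atrium, the right atrium (RA), the left ventricle (LV) or the right ventricle (RV). Hearts were digested by a perfusion of 9 minutes, at a flow of 1.5 mL/min, and sorted cells were made into plate-based SCRB-seq libraries, in which every well has its own barcode. The protocol describes excision and mincing of the ventricle and names no step for an atrium, and it names no animal. The chamber experiment was deposited as 1 sample with 4 libraries, A to D, so cells are not replicates, no test of a difference was possible, and the intervals below are exact 95% intervals that cover counting error only. The 56 LA cells comprised 23 of library A, 22 of library B, 6 of library C and 5 of library D, with medians of 5786, 31548, 17735 and 7071 gene UMIs. All 84 barcodes occur in more than 1 library, and 35 of the 36 barcodes of LA cells mark an LA cell in more than 1 library. The 15 LA cells left out held 67 to 2575 gene UMIs, Hbb-bs UMIs in 13 of them, Myl2 UMIs in 14 and no Msln UMI.

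Atrial and ventricular myocytes use different light chains in their contractile apparatus. Ventricular myosin carries Myl2 as its regulatory light chain, atrial myosin carries Myl7, and atrial myocytes also secrete the natriuretic peptide Nppa and make sarcolipin (Sln), a regulator of the calcium pump. The outer surface of the heart is covered by mesothelium, the epicardium, a thin epithelium that makes mesothelin (Msln), uroplakins (Upk3b, Upk1b) and the membrane mucin Muc16. Red cells carry haemoglobin RNA, of which Hbb-bs (beta globin), Hba-a1 and Hba-a2 (alpha globins) are the main transcripts in adult mice.

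The label did not match atrial markers. Nppa had 0 UMIs in the 56 LA cells, where 3 UMIs would have made 3.21 CPM (counts per 1000000 nuclear-encoded UMIs, mitochondrially encoded genes outside the total). Myl4, the atrial essential light chain, had 2 UMIs in 1 cell, and Sln had 7 UMIs in 4 cells. Myl7 had 81 UMIs in 11 cells, and 63 of them lay in 1 cell of library B, described below, that was not a myocyte by its other genes. Myl2, by contrast, had UMIs in all 56 cells. The cells are therefore called LA-labelled by their rule and not atrial myocytes. On GRCm38, Myl2 lies at chr5:122100951-122113472 on the plus strand, Upk3b on the same chromosome at chr5:136038496-136046487 on the plus strand, and Msln at chr17:25748613-25754378, Hbb-bs at chr7:103826534-103828096 and Myl7 at chr11:5896637-5898782 on the minus strand.

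Each LA cell was placed in 1 of 4 ranges of a score, which are not cell types. A cell was mesothelial-rich where Msln, Upk3b, Upk1b, Muc16 and Lrrn4 (a leucine-rich repeat membrane protein of mesothelium) together made at least 0.5% of its nuclear-encoded UMIs. A remaining cell was low-Myl2 where its Myl2 level was under 5617 CPM, the 5th percentile of the LV and RV cells. A remaining cell was blood-rich where haemoglobin and other erythroid genes made at least 2%, and all others were plain ventricular-like. There were 24 plain ventricular-like LA cells (42.9%, interval 29.7 to 56.8%), 16 blood-rich (28.6%, 17.3 to 42.2%), 14 low-Myl2 (25%, 14.4 to 38.4%) and 2 mesothelial-rich (3.57%, 0.435 to 12.3%). The same ranges held 138, 34, 9 and 0 of the 181 LV and RV cells (76.2%, 18.8%, 4.97% and 0%, the last allowing up to 2.02%) and 10, 28, 5 and 1 of the 44 RA cells. The low-Myl2 share of LV and RV cells is fixed near 5% by the percentile. Within 1.5-fold of a minimum lay 18 LA cells for Myl2, 10 for the erythroid share and 0 for the mesothelial share.

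**Figure D1:**
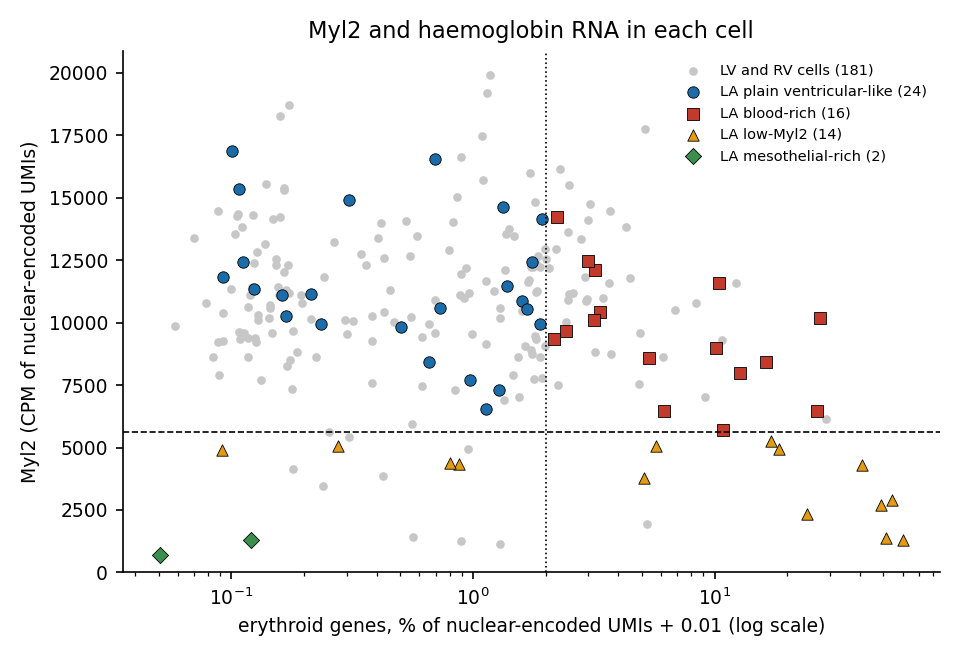
Myl2 level of each LA, LV and RV cell (y axis, CPM of nuclear-encoded UMIs) against its erythroid share (x axis, percent plus 0.01, log scale), with LA cells coloured by range and both limits as lines. The 16 blood-rich LA cells spread from 2.15 to 27.3% erythroid, and low-Myl2 LA cells reach 60.0%.

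Plain, blood-rich and low-Myl2 cells occurred in each library. Library A held 10 plain, 6 blood-rich and 7 low-Myl2 LA cells, and library B held 11, 7 and 3. Library C held 2, 1 and 2 and library D 1, 2 and 2, so the small libraries add few cells to any range. The mesothelial-rich cells were 1 each in libraries B and C. Left out in turn, with the percentile recomputed, library A left 7 low-Myl2, 10 blood-rich and 14 plain cells, library B left 7 blood-rich and 13 plain cells, and library D left 7 low-Myl2 cells.

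The ranges differed in RNA content as well. Plain ventricular-like LA cells held a median of 31548 gene UMIs (range 1695 to 95438), blood-rich cells 12782 (2122 to 100653) and low-Myl2 cells 3596 (1443 to 72116), against a median of 46115 in LV and RV cells. Relative to the ERCC spike-in RNA added to each well, the medians were 62.2, 18.6 and 8.60 gene UMIs per ERCC UMI in the 3 LA ranges and 109 in LV and RV cells. The lower count of LA cells is therefore seen against a fixed input as well. Mitochondrially encoded genes made a median of 36.2%, 36.4% and 29.9% of gene UMIs in the 3 LA ranges and 41.2% in LV and RV cells.

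Reads per UMI separated LA cells further. Each captured molecule is amplified before sequencing and can be read several times, so reads per UMI is the number of reads behind each counted molecule. The readout was taken up after the first values were seen. Over the sarcomere genes, 168 of 181 LV and RV cells (92.8%) had at least 5 reads per UMI, with a median of 9.94. Of the 56 LA cells, 21 (37.5%, interval 24.9 to 51.5%) did so, with a median of 2.74, and of the RA cells 8 of 44, with a median of 2.41. Plain LA cells reached it in 16 of 24 cases (66.7%, median 9.20), blood-rich in 4 of 16 (25%, median 2.08), low-Myl2 in 1 of 14 (7.14%, median 2.37) and mesothelial-rich in 0 of 2. Among blood-rich cells elsewhere, 2 of 28 RA cells (7.14%, median 2.41) and 33 of 34 LV and RV cells (97.1%) reached it, so blood-rich cells of both atrial labels were mostly low.

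**Figure D2:**
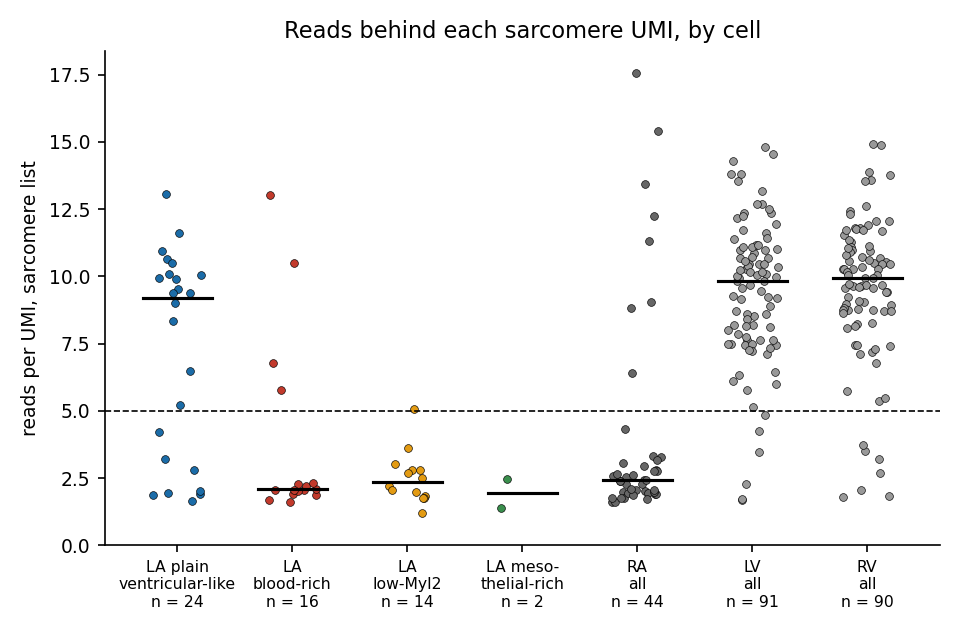
Reads per UMI over the sarcomere list (y axis) of each cell, with LA cells by range and the other labels whole (x axis), bars at the medians and a line at 5. Most LV and RV cells lie near their median of 9.94, while 35 of the 56 LA cells lie under 5.

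Among the 40 ventricular-like LA cells (plain and blood-rich together), the 20 with at least 5 sarcomere reads per UMI and the 20 under it differed in more than this readout. The former had a median of 35806 gene UMIs, 86.6 gene UMIs per ERCC UMI, 12254 Myl2 CPM and an erythroid share of 0.492%. In the latter the medians were 5110 gene UMIs, 12.8 gene UMIs per ERCC UMI, 8785 Myl2 CPM and 2.80% erythroid. Both sets occurred in libraries A (6 of 16 cells at or above 5) and B (10 of 18), and 5 of the 40 lay within 1.5-fold of the limit. The cells with few reads per UMI were thus also those with less RNA against the spike-in and more haemoglobin RNA.

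The first gene programme compared was that of the mesothelial-rich LA cells, whose 157587 summed UMIs were set against 484641 UMIs of the 24 plain ventricular-like cells. The cell of library B held 102715 gene UMIs over 8744 genes, and that of library C 61197 over 6304, both well above the plain median of 3466 genes. In the cell of library B, Msln had 328 UMIs, Upk3b 263, Muc16 246, Upk1b 49 and Lrrn4 36, together 922 UMIs or 0.935% (interval 0.876 to 0.997%). In the cell of library C the same genes had 184, 245, 90, 23 and 8 UMIs, together 550 or 0.932% (0.856 to 1.01%). The 24 plain cells together had 30 such UMIs (0.00619%), and no LV or RV cell exceeded 0.132%. These 5 genes chose the cells, so their excess is a description and no finding.

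Promoter windows of 4 of the genes with high levels in these cells are shown because their genes, for surface proteins and the secreted Igfbp5, were high together. They are the 250 bases before the annotated start in RefSeq on GRCm38.p6, written 5′ to 3′ on the gene's strand, with capitals marking the letters CATTCC or their reverse complement GGAATG, the core of the MCAT element that TEAD factors bind. The windows are chr5:136038246-136038495 (plus strand) for Upk3b, chr1:72874866-72875115 (minus) for Igfbp5, chr2:132880863-132881112 (minus) for Lrrn4 and chr9:18674604-18674853 (minus) for Muc16. Windows of Msln and Upk1b were not used here.
Upk3b: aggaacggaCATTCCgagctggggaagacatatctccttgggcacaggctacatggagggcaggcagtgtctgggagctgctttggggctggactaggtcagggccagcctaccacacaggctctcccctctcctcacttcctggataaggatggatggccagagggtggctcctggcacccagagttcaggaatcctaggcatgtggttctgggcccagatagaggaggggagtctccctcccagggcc
Igfbp5: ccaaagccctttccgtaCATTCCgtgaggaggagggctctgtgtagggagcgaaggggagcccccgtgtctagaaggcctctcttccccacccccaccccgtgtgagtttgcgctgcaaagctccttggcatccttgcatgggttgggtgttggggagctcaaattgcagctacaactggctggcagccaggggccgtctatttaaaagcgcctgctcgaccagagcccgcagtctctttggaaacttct
Lrrn4: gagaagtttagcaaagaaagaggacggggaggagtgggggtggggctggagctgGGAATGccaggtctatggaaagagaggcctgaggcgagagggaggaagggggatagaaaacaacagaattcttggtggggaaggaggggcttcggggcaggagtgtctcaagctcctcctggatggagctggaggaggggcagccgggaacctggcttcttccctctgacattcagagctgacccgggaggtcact
Muc16: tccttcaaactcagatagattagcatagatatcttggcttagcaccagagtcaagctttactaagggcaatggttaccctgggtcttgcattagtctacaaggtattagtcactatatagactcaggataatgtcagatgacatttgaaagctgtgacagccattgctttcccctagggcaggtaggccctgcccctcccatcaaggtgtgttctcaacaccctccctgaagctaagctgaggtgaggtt

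Upk3b and Igfbp5 each hold 1 CATTCC, Lrrn4 holds 1 GGAATG and Muc16 holds neither. Over all genes with a window, 3880 of 27025 (14.4%) hold the letters on either strand. The share was 121 of 788 (15.4%) among matched genes that were at least 2-fold higher in the mesothelial-rich cells, 124 of 864 (14.4%) among those at least 2-fold lower and 374 of 2639 (14.2%) among all matched genes compared. A match is a run of letters and not a bound site.

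Of 3387 genes with at least 30 UMIs over both sides, 1004 (29.6%) were at least 2-fold higher in the mesothelial-rich cells and 1114 (32.9%) at least 2-fold lower, on a log2 scale with 5 CPM added. A gene scarce in plain cells reached 30 UMIs only where the mesothelial-rich cells supplied them. Counts of such list members below therefore lean towards higher by construction. Of the 1004, 611 were at least 2-fold higher in both cells, 288 in the cell of library B alone and 105 in that of library C alone. Without library B, 325 genes were higher, and with all gene UMIs as the total 1381 were higher and 899 lower, with a median of 0.57. All 25 named genes with the highest ratio were higher in both cells, and 3 of the 25 belong to the mesothelial lists. Leaving out library B removes its plain cells too, and most of the ratios given below that then moved by over 1.5 times became larger, with log2 values of 8.82 for Upk3b (7.23 with all libraries), 7.87 for Msln (6.99), 8.35 for Abi1 (6.85), 8.99 for Crip1 (7.40), 8.09 for Pkhd1l1 (6.72) and 7.25 for S100a6 (6.44). Wdr17 fell from 7.46 to 6.35.

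The insulin-like growth factor binding proteins, secreted carriers that hold IGFs outside cells, stood high in both cells. Igfbp5 had 896 UMIs in the cell of library B (9088 CPM) and 504 in that of library C (8543 CPM), and 22 in all 24 plain cells (45.4 CPM), a ratio of 196 (interval 129 to 313). Igfbp6 had 567 UMIs in the pair of cells and 10 in the plain cells, a ratio of 174 (94.1 to 366). Without library B the log2 ratios were 9.32 for Igfbp5 (7.46 with all libraries) and 8.70 for Igfbp6 (7.14). Of 8 list members measured, 4 had enough UMIs to compare, through these cells, and all 4 (Igfbp4 and Igfbp7 too) were higher. Igf2, not compared, had 0 UMIs in both cells. The 8 made 1.36% and 1.25% of the cells' UMIs against 0.00949% in plain cells.

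Complement genes formed another secreted group. C3, the central complement component, had 765 UMIs (4854 CPM) against 18 (37.1 CPM), 131-fold higher (82.1 to 222). Serping1, the inhibitor of the first complement proteases, had 205 against 2 UMIs, 315-fold higher (86.2 to 2620). Without library B the log2 ratios were 8.39 for C3 (6.85 with all libraries, 6.23 without library A) and 8.21 for Serping1 (7.16). Factor B (Cfb) had 36 against 3 UMIs, so these 3 members were higher together.

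Retinoid genes were higher as well. Aldh1a2, which makes retinoic acid and is a classical epicardial gene, had 43 UMIs against 1, and Aldh1a1, of the same enzyme family, 30 against 2. Rarres2, which encodes the secreted attractant chemerin, had 214 UMIs (1358 CPM) and none in the plain cells, at least 219-fold higher against 3 UMIs over those cells, although its log2 ratio of 8.09 became 8.78 when library B was left out and 7.44 when library C was.

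Further epicardial and epithelial markers that did not choose the cells were also high. Of 14 measured, 9 reached 30 UMIs and all 9 were higher, beside 29.6% of all genes compared. These 9 had 1 to 12 UMIs each in plain cells and reached the minimum through the mesothelial-rich cells, so the count is a description. Wt1, the transcription factor by which epicardium is often marked, had 47 and 19 UMIs in the cells of libraries B and C (419 CPM together) and 1 in all plain cells. Rspo1, a secreted enhancer of Wnt signalling, had 101 and 35 UMIs against 4. Keratins of simple epithelia were present too, Krt19 with 71 UMIs against 2, Krt7 with 36 against 1, Krt8 with 31 against 2 and Krt18 with 20 against 0. The tight-junction protein Cldn15 had 134 UMIs against 2, and ezrin (Ezr), which ties the membrane of microvilli to actin, 199 against 11. Other markers of the epicardial lineage were sparse, Tbx18 with 21 UMIs, Bnc1 with 13 and Gata5 with 9, while Tcf21 had 0. The epithelial cadherin Cdh1 and the adhesion molecule Epcam had 0 UMIs, and desmoplakin (Dsp), which myocytes use in their intercalated discs, had 9 UMIs against 327. Of the keratin and junction list as a whole, 5 of 9 compared were higher and Dsp alone was lower.

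Matrix and stromal genes did not separate cleanly from this programme. The fibroblast list had 414 UMIs in the cell of library B and 239 in that of library C. Of 11 members measured, 4 reached 30 UMIs and all 4 were higher. Decorin (Dcn), a collagen-binding proteoglycan, had 238 and 151 UMIs against 22, 54.4-fold higher (35.4 to 87.8). Col3a1, a fibrillar collagen, had 53 UMIs and none in plain cells, at least 54.3-fold higher. Lum, Pdgfra, Dpt, Postn and Pi16 of the same list had 0 UMIs in both cells, and Gsn had 1 and 4 against 18 in plain cells. Efemp1, a fibulin of elastic matrix, had 125 UMIs and none in plain cells, at least 128-fold higher, and the protease inhibitor Timp2 had 242 against 8. Of 14 matrix genes measured, only 5 reached 30 UMIs, and those 5 were higher. Matrix genes not compared went both ways. Col4a1 stood at 20.3 and 17.0 CPM in the cells of libraries B and C against 43.3 in plain cells, and Lamc1 at 121.7 and 50.9 against 20.6. The part of stromal RNA in this programme was not tested.

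Of endothelial genes, the VEGF receptor Kdr had 88 and 50 UMIs against 8, 53.1-fold higher (26.2 to 125), and the adhesion molecule Esam 40 against 2. The other endothelial genes were at or near 0, with Tek at 5 UMIs, Fabp4 at 3, Egfl7 at 2, Pecam1 at 1, Vwf at 1, and Cdh5, Flt1, Tie1, Emcn, Ly6c1 and Ptprb at 0 in both cells. Mural genes were low as well, with the smooth-muscle actin Acta2 at 0 UMIs against 70, and of the macrophage list Csf1r had 1 UMI and the chemokine receptor Cx3cr1 20 against 142. Kdr and Esam were thus high without the rest of the endothelial list.

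Genes of contraction, calcium handling and oxidative phosphorylation were low. All 15 sarcomere genes compared were at least 2-fold lower, with a median log2 ratio of −3.96 against −0.015 over all genes compared. Myl2 had 67 UMIs in the cell of library B (680 CPM, 527 to 863) and 76 in that of library C (1288 CPM, 1015 to 1612), against 12265 CPM in plain cells. Of the calcium genes 9 of 10 were lower, with phospholamban (Pln) at 6 UMIs against 615 and the release channel Ryr2 at 27 against 1243. Of 76 nuclear-encoded oxidative phosphorylation genes, 70 were lower and none higher, and they made 1.37% and 2.06% of UMIs against 9.52%. Mitochondrially encoded genes made 4.01% and 3.60% of gene UMIs, below every plain cell, whose lowest value was 26.5%. Cytosolic ribosome genes showed no common direction, with 8 of 81 higher and 4 lower, and a median of 0.23 that turned to −0.03 with edgeR's TMM factors.

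**Figure D3:**
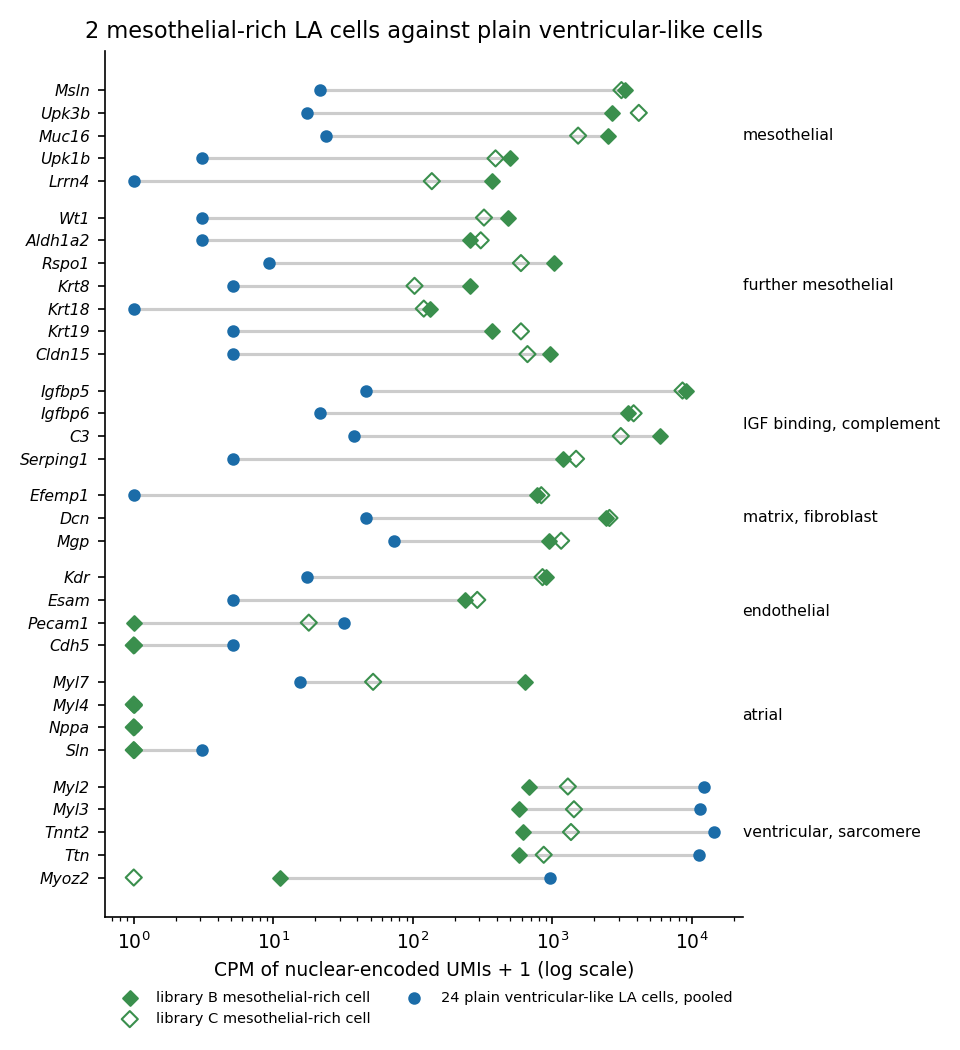
Level of named genes (x axis, CPM plus 1, log scale) in the mesothelial-rich LA cells of libraries B and C (diamonds) and in the 24 plain ventricular-like LA cells summed (circles). Mesothelial, IGF-binding and complement genes lie right of the plain cells in both, and Myl2 lies left of them at 680 and 1288 CPM.

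The smaller gene groups split, where 29.6% of all genes compared were higher and 32.9% lower. Actin and calcium-binding genes were higher in 8 of 10 cases, among them the calcium-binding S100a6 (209 UMIs against 5) and the actin-sequestering Tmsb10 (111 against 1), while Lgals1 was lower at 20 against 210. Of 11 antigen presentation and interferon genes measured, 5 reached 30 UMIs and all 5 were higher, with B2m at 157 UMIs against 39 and Ifitm3 at 121 against 13. Those not compared went both ways, with Irf7 at 1 and 0 UMIs in the cells of libraries B and C against 18, and Ifit1 at 6 and 0 against 0. Immediate early genes went both ways, 4 of 14 higher, near the share over all genes, and 8 lower. Klf4 had 67 UMIs against 12, 17.2-fold higher (9.21 to 34.9), whereas Fos had 6 against 155, Egr1 4 against 124 and Jun 13 against 207. With all gene UMIs as the total these were 5 higher and 5 lower, the only list here whose balance moved in that way apart from the ribosome genes (30 higher, 2 lower).

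The remaining genes with the highest ratios belonged to no list. Tbce, a tubulin-folding cofactor, had 406 UMIs against 2, 624-fold higher (172 to 5173). Crip1, a small LIM protein, had 789 against 12, 202-fold higher (115 to 393), and podoplanin (Pdpn), a membrane glycoprotein of mesothelium and lymphatics, 96 against 1. Others were Wdr17 (367 UMIs against 4), Bicc1 (143 against 1), Rnase4 (310 against 5), Abi1 (542 against 12), Pkhd1l1 (151 against 2) and Slc39a8 (109 against 1). At the other end stood myocyte genes, with the Z-disc protein Myoz2 at 1 UMI against 463 and Nrap, a myofibril assembly protein, at 0 against 135, at least 14.6-fold lower. Without library B their log2 ratios were −7.40 and −5.11, in place of −6.40 and −5.83.

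Reads per UMI differed between gene groups inside the same cells. The mesothelial genes had 10.7 and 10.6 reads per UMI in the cells of libraries B and C, and Kdr had 12.9 and 16.3. Myl2 had 1.09 and 1.25 and the sarcomere list 2.48 and 1.41, against 8.98 in plain cells. Erythroid UMIs had 1.45 in either cell. Oxidative phosphorylation genes (6.61 and 7.33) and ribosome genes (7.62 and 9.47) lay near the plain values of 6.89 and 6.73. Myl2 and haemoglobin molecules of these cells were thus read between 1 and 2 times each, and mesothelial ones about 10 times. Among sarcomere genes Tpm1, a tropomyosin that many cell types make, had 6.31 reads per UMI in the cell of library B. The calcium list had 5.47 reads per UMI in the cell of library B and 1.62 in that of library C, and the 63 Myl7 UMIs of the cell of library B had 10.6. In that cell Myl4, Nppa and Sln had 0 UMIs.

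The pair of cells was not uniform. Over 928 genes with at least 30 UMIs in the pair, 263 were at least 2-fold higher in the cell of library B and 141 in that of library C. Their log2 CPM had a Pearson r of 0.386 and a Spearman rank correlation of 0.273 between the cells, a description over genes that are not independent and that share a depth within each cell. The genes were chosen by their UMIs summed over these same cells. That choice leaves out genes low in both and can lower a correlation, so the values do not measure how alike the cells were. Dlc1, a GTPase-activating protein, had 68 UMIs in the cell of library B and 0 in that of library C, at least 13.6-fold higher. The hyaluronan receptor Cd44 had 72 UMIs in the cell of library C and 16 in that of library B, 7.52-fold higher (4.33 to 13.9). With 1 cell from each library, cell and library cannot be told apart.

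Mesothelial UMIs also occurred at trace level in other cells of the libraries that held these cells. Outside mesothelial-rich cells, the 5 genes had 183 UMIs in library B (108 CPM, in 60 of 75 cells) and 240 in library C (124 CPM, in 55 of 64 cells). In library A, with no mesothelial-rich cell, they had 3 UMIs in 80 cells (1.77 CPM) and in library D 2 UMIs in 59 cells (1.37 CPM). Of the LA cells, 15 of 21 in library B had such a UMI, 4 of 5 in library C, 1 of 23 in library A and 1 of 5 in library D. The trace in library B had 1.30 reads per UMI. In library C it had 4.93, and 6 cells there exceeded 5, 1 of them an RV cell with 41 UMIs and 465 reads. An RA cell of library C was itself mesothelial-rich by the limit, with 22 UMIs of 3476 (0.633%, 0.397 to 0.957%) beside an erythroid share of 14.9%. LA cells thus carried the trace with the other labels of their library, at 158 CPM in library B beside 94.1 in LV and RV cells and 119 in RA cells, and at 117 CPM in library C beside 113 and 180.

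**Figure D4:**
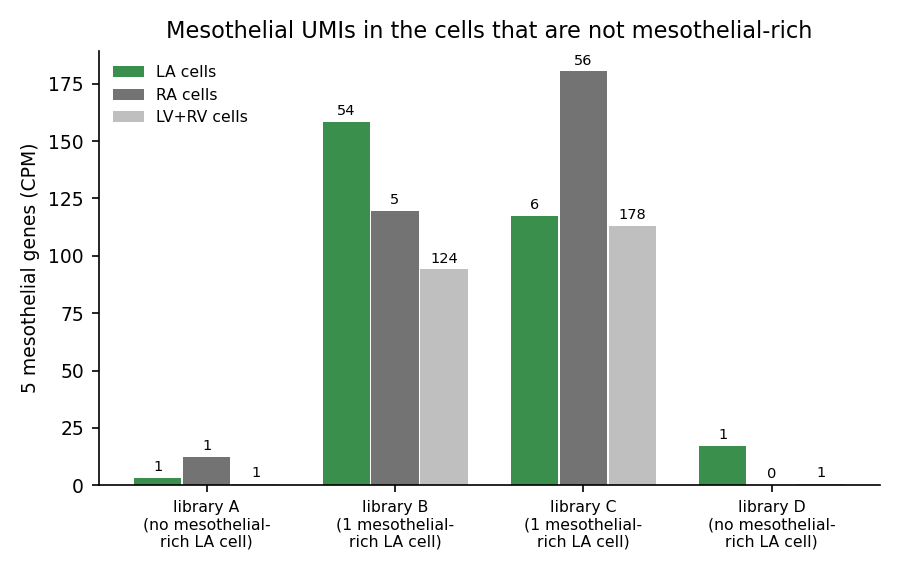
Summed CPM of the 5 mesothelial genes in cells that are not mesothelial-rich (y axis), by library and label, with the number of UMIs above each bar. LA cells of libraries B and C lie at 158 and 117 CPM, those of libraries A and D at 3.07 and 17.2 CPM on 1 UMI each.

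The 14 low-Myl2 LA cells were a mixture. Their Myl2 levels ran from 1301 to 5259 CPM with a median of 4322, and the upper end of the interval lay below the limit of 5617 CPM in 5 of the 14. The erythroid share had a median of 17.8% and reached 60.0%, was at least 2% in 10 cells and exceeded 20% in 6. With erythroid genes taken out of the total, 4 of the 14 returned to the limit or above, 2 of them cells of over 20%. In those 4 the low Myl2 share went with the share of the total that haemoglobin took.

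The 6 cells over 20% were cell 6 of library C (60.0%), cell 17 of library B (54.5%), cell 5 of library D (51.4%), cell 18 of library B (48.9%), cell 1 of library C (40.9%) and cell 1 of library D (24.1%). Each held myocyte RNA as well, with sarcomere shares from 0.989 to 4.84%. Their erythroid UMIs had 5.05 to 7.86 reads per UMI and their sarcomere UMIs 1.20 to 2.52, so haemoglobin RNA was read more deeply than myocyte RNA in all 6. Among its 6 genes with the highest ratio to plain cells, cell 6 of library C was led by Gda (12 UMIs), Fam171a2 (10) and Nusap1 (9) and also had 11 UMIs of Bnip3l, by which maturing red cells clear their mitochondria, and 11 of Slc25a37, the mitochondrial iron importer. Cell 1 of library C had 17 UMIs of Fech, the last enzyme of haem synthesis. Cell 18 of library B had 9 UMIs of Tmcc2, and cell 17 of library B had 8 of Isg20. In the cells of library D no such gene was among the highest 6, which were led by Wdr59 (15 UMIs) and Lax1 (14) in cell 1 and by Cnnm1 (7) and Trim9 (6) in cell 5. These names were picked after the values were seen.

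The other 8 low-Myl2 cells were less alike. Cell 8 of library A was large (72116 gene UMIs), but mitochondrially encoded genes made 68.8% of them, and it had 5066 Myl2 CPM, near the limit. Cell 14 of library A was similar, with 51.2% mitochondrially encoded and 3778 Myl2 CPM. In both, a single locus, CT010467.1, took 30.5% and 20.7% of nuclear-encoded UMIs. With that locus out of the total, Myl2 stood at 7284 CPM in cell 8 and 4765 CPM in cell 14, beside the limit of 5617 CPM, which was not recomputed. The locus was the largest in most LA cells, with 18.1% in blood-rich cell 20 of library A and 15.4% in the mesothelial-rich cell of library C. Cell 18 of library A held 1227 nuclear-encoded UMIs, 1 erythroid UMI, 9 endothelial and 7 fibroblast UMIs, 15.0% mitochondrially encoded UMIs, 13 UMIs of the calcium pump Atp2b4 and 5 of the caveolin Cav1. None of the 14 cells held a mesothelial share near the limit.

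Summed, the low-Myl2 cells gave 65765 UMIs, and of 2438 genes compared with plain cells 99 (4.06%) were at least 2-fold higher and 1300 (53.3%) lower. The median of all genes was −1.06 on the log2 scale, so most of the lower genes moved with the whole. With TMM factors the median was −0.06, and the counts were 342 higher and 466 lower. Without library A 52 genes were higher, and without library B 65 were higher and 735 lower. In simulated pools of these sizes with counting error only, 14.2% of unchanged genes passed 2-fold in either direction, where 57.4% of genes did here. Single genes with few UMIs are therefore uncertain, on the higher side too. Erythroid genes were no part of the limit, though they enter the total behind it, and all 5 with enough UMIs were higher, by 4.50 to 4.90 on the log2 scale. Without the 6 cells over 20% erythroid, 4 of 4 were higher with a median of 2.06, and 117 genes in all were higher and 1016 lower. Hbb-bs had 5175 UMIs against 1678 (78689 against 3462 CPM), 22.7-fold higher (21.5 to 24.0). Its log2 ratio of 4.50 became 6.30 without library A and 3.74 without library B. Alas2, the first enzyme of haem synthesis in red cells, had 35 UMIs against 7, and Bpgm, which makes the regulator of oxygen release in red cells, 21 against 12, 12.9-fold higher (6.06 to 28.8). The remaining high genes included Mkrn1 (41 UMIs against 29), Ube2o (23 against 21), which tags proteins for removal in maturing red cells, Gpx1 (50 against 50), Pabpc1 (51 against 51) and Macrod2 (43 against 23). Without library D the log2 ratios of Mkrn1 and Pabpc1 were 2.26 in place of 3.28 and 1.23 in place of 2.82, without library B those of Alas2, Gpx1 and Ube2o were 4.06, 2.17 and 1.98 in place of 4.79, 2.82 and 2.88, and without library A those of Mkrn1, Pabpc1 and Gpx1 were 5.17, 4.38 and 3.54.

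Myocyte and ribosome lists spread around the median of all genes, −1.06. Of the sarcomere genes 9 of 15 were at least 2-fold lower (median −1.09, and 0 of 15 with TMM factors), of the calcium genes 1 of 10 (median −0.74, and 0.30 with TMM factors). Oxidative phosphorylation genes were lower in 69 of 76 cases (median −1.54) and ribosome genes in 62 of 80 (median −1.38), or in 9 and 17 with TMM factors. The 10 named genes with the lowest ratios all had 0 UMIs in the low-Myl2 cells, from Olfr620 at least 6.47-fold lower to Eef1a2, the muscle elongation factor, at least 2.94-fold lower. A further list of 26 genes of late red-cell maturation, chosen after the values were seen, made 0.581% of UMIs in the low-Myl2 cells, 0.218% in blood-rich and 0.113% in plain cells. The list was not confined to cells with much haemoglobin RNA. It made 0.215% in the mesothelial-rich cell of library C, where the erythroid share was 0.110% and Gpx1 had 57 UMIs. In the mesothelial-rich cell of library B it made 0.122%. Low-Myl2 cell 22 of library A had 0.433%, on 4 UMIs, at 0.866% erythroid, and cell 8 of library A had 0.107% at 0.267%.

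In the 16 blood-rich LA cells haemoglobin RNA lay beside ventricular myocyte RNA. Their erythroid share ran from 2.15 to 27.3% with a median of 5.76%, and Hbb-bs alone made at least 1.07% with a median of 2.95%. Myl2 ran from 5700 to 14216 CPM (median 9506) against 6542 to 16871 (median 11119) in plain cells. The same Myl2 minimum of 5617 CPM bounds both ranges, and cells under it were counted as low-Myl2. Their overlap in Myl2 is therefore set in part by the rule and is a description. The erythroid share chose these cells, so the 5 erythroid genes, all higher by 2.35 to 2.63, are a description. Hbb-bs stood at 19951 CPM against 3462, 5.76-fold higher (5.45 to 6.10).

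Over 3130 genes compared, 224 (7.16%) were at least 2-fold higher in blood-rich than in plain LA cells and 283 (9.04%) lower, with a median of −0.10. Without library B 148 genes were higher, and with every cell weighted equally 274 were higher and 573 lower. No sarcomere gene of 15, no calcium gene of 10 and no oxidative phosphorylation gene of 76 passed 2-fold, with medians of −0.11, 0.21 and −0.23. The sarcomere list made 8.27% of UMIs against 8.55%. Ribosome genes were 1 of 80 higher and 3 lower. The myocyte lists stayed within 2-fold of plain cells beside haemoglobin in the summed cells.

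Genes outside the erythroid list that were high in blood-rich cells included several known from maturing red cells. Isg20, an RNA exonuclease, had 34 UMIs in 8 of the 16 cells against 5 in plain cells, 14.6-fold higher (5.68 to 47.8), although 17 of the 34 lay in 1 cell. Slc25a37 had 24 UMIs against 7, and Ube2l6, a conjugating enzyme for the ubiquitin-like ISG15, had 17 against 2 in 4 cells. The adhesion molecule Opcml, with 26 UMIs against 7, had 17 of them in 1 cell, and Zfp664, with 16 of its 24 in 1 cell, was as uneven. At the low end Csdc2 had 0 UMIs against 36, at least 5.59-fold lower, with a log2 ratio of −3.99 that was −4.71 without library B.

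The erythroid UMIs of blood-rich cells had a median of 4.17 reads per UMI and those of plain cells 1.60. The cells overlapped, from 1.52 to 6.34 in blood-rich and from 1.05 to 5.84 in plain cells, and the summed erythroid UMIs of plain cells had 3.38. The part of haemoglobin RNA in the other differences of these cells was not tested.

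**Figure D5:**
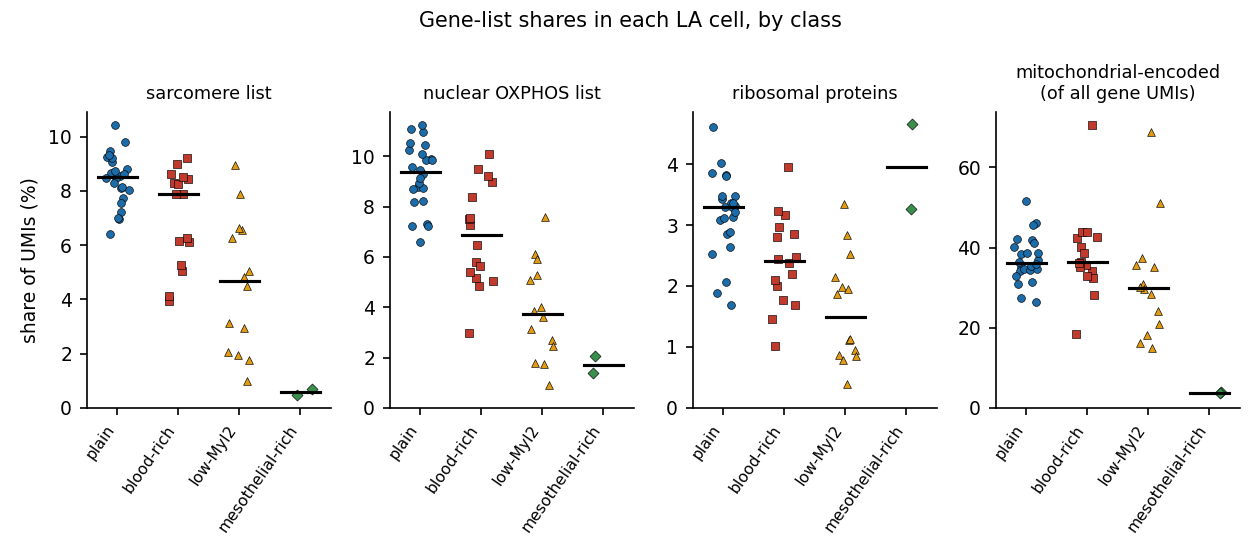
Share of UMIs (y axis, percent) of the sarcomere, nuclear-encoded oxidative phosphorylation and ribosomal protein lists and of mitochondrially encoded genes in each LA cell, by range, with bars at the medians. The median sarcomere share is 8.52% in plain, 7.88% in blood-rich and 4.67% in low-Myl2 cells, and both mesothelial-rich cells lie under 1%.

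The last comparison set all 40 ventricular-like LA cells (710395 UMIs) against the 181 LV and RV cells (5554651 UMIs). Of 11212 genes compared, 376 (3.35%) were at least 2-fold higher in the LA cells and 1110 (9.9%) lower, with a median of −0.16. With all gene UMIs as the total the counts were 312 and 412, and with TMM factors 519 and 895. Without library B 637 genes were higher, and without library A 1752 were lower. After removal of each gene's top cell on both sides, 84 genes remained at least 2-fold higher and 1589 lower. A top cell is 1 of 40 LA cells and 1 of 181 LV and RV cells, so its removal lowers the LA side more by construction.

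The contractile genes differed little. Myl2 stood at 11689 CPM in ventricular-like LA cells and 10410 in LV and RV cells, a ratio of 1.12 (1.10 to 1.15), with the minimum that defines the LA cells raising the first. The essential light chain Myl3 had a ratio of 1.12 too. The largest sarcomere differences were Tcap, the cap of titin, at 1.37-fold (1.30 to 1.45) and Ttn itself at 0.746 (0.730 to 0.762), so none of 15 reached 2-fold. None of 10 calcium genes, 86 oxidative phosphorylation genes or 86 ribosome genes did so.

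Among atrial genes, Myl7 had 13 UMIs in 7 ventricular-like LA cells (18.3 CPM) and 3 UMIs in LV and RV cells (0.540 CPM), a ratio of 33.9 (9.31 to 185). No ventricular-like LA cell held more than 3 Myl7 UMIs. Sln had 5 UMIs in 3 of these LA cells (7.04 CPM) and 4 UMIs in LV and RV cells (0.720 CPM), higher like Myl7 but on few UMIs. Nppa was at 0 in the LA cells and had 2 UMIs in LV and RV cells, and Myl4 had 2 UMIs (2.82 CPM) against 29 (5.22 CPM). The potassium channel subunits of the atrial acetylcholine current differed from each other. Kcnj3 stood at 104 CPM against 94.7, with an interval of the ratio from 0.850 to 1.41. Kcnj5 stood at 98.5 against 21.1 CPM, 4.68-fold higher (3.43 to 6.34), although 28 of its 70 UMIs lay in 1 cell of library D, without which library the log2 ratio was 1.32. Tbx5, a transcription factor of atria and left ventricle, had 5 UMIs (7.04 CPM) against 24.5 CPM. The direction therefore differed among the atrial list, with 1 of 6 compared at least 2-fold higher and 1 lower. Myl7 and Sln had too few UMIs to be among these 6.

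Vascular and stromal genes were lower in the summed ventricular-like LA cells than in the summed LV and RV cells. By the median cell, the endothelial and fibroblast lists lay slightly lower in plain LA cells than in LV and RV cells, and higher in blood-rich LA cells. The endothelial list made a median of 0.0150% in plain, 0.0414% in blood-rich LA cells and 0.0167% in LV and RV cells, where the highest cell held 1.06%. The fibroblast list made 0.00999%, 0.0202% and 0.0116%, with a highest LV or RV cell of 1.34%. The sums below thus weigh a few ventricular cells with high shares. Over all genes compared, 9.9% were at least 2-fold lower. Of the endothelial list 6 of 13 were lower by that fold (median −0.98), none was higher, and of the fibroblast list 8 of 10 (median −1.19). The matrix list had 6 of 14 lower (median −0.92) and the mural list 3 of 7 (median −0.53), all against −0.16 over all genes. Fabp4, the fatty acid carrier of capillary endothelium, had 14 UMIs against 800, 7.31-fold lower (4.33 to 13.4), although 244 of the 800 lay in 1 cell. The VEGF receptor Flt1 had 9 UMIs against 444, 6.31-fold lower (3.29 to 13.9), the pericyte gene Rgs5 9 against 392 and the matrix protein Sparc 13 against 440. Dcn had 37 against 692, Col3a1 2 against 141 and Gsn 36 against 846. Vwf, by contrast, had a ratio of 1.18 (0.850 to 1.60).

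The difference kept its direction among cells of at least 5 sarcomere reads per UMI on both sides, where 6 of 12 endothelial and 6 of 9 fibroblast genes were at least 2-fold lower (medians −0.96 and −1.38). Over all genes 1484 of 10514 were lower there. With every cell weighted equally, 4 of 13 endothelial genes were lower and 1 higher, and 6 of 10 fibroblast genes lower and 1 higher. All 11212 genes then gave 1408 lower and 783 higher. Fewer vascular and stromal cells in a well and less RNA from each cannot be told apart.

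Several of the 10 genes with the highest ratios in ventricular-like LA cells rested on 1 library. Dock2, a Rac activator of leukocytes, had 57 UMIs against 36, 12.4-fold higher (8.02 to 19.4), with 56 of the 57 in library A and 24 in 1 cell, and its log2 ratio of 2.89 was 3.93 without library B. Prkcb, a protein kinase C, had all 53 UMIs in library A, and its log2 ratio was −1.80 without that library. Unc50 had 39 of 40 UMIs in library B, and its log2 ratio was −1.29 without it. Zfat and Tmco4 stood at 0.63 and 0.02 without library A, in place of 1.86 and 1.65. Without library B, Prkcb, Zfat, Tmco4 and Nob1 were larger, at 2.91, 2.47, 2.35 and 2.58, and without library A Unc50 was 2.42. Nob1, Nup62, Rbm15 and Tmem11 were the others named by the rule on the high side, with UMIs in 3 or 4 libraries each.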

How the data were processed

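The chamber experiment of the series was 1 deposited sample of 4 single-cell libraries. The authors deposited UMI counts and read counts per gene and cell barcode, as raw whole numbers, and a table of chamber, library and barcode row per cell. Per the labels' protocols, SCRB-seq used a 6-base cell barcode, a 10-base UMI and 17 PCR cycles on 96-well plates. Per the submitters' processing notes, STAR 2.5.4b and featureCounts were used with GRCm38. Not given in the sources used here were the annotation release, the strand setting and how UMIs were collapsed. With no strand setting known, overlapping genes cannot be separated. The other study of the series was not used, nor were 21 barcode columns without a label.

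Cells needed at least 1000 gene UMIs and 500 genes, and gene UMIs of LA cells summed to 554599, 673768, 137062 and 80833 in libraries A to D. CPM were computed over nuclear-encoded UMIs. Summed UMIs were compared as log2 ratios with 5 CPM added, over genes with at least 30 UMIs, and genes 2-fold or more apart were counted. Exact Clopper-Pearson 95% intervals cover counting error, and ratios against 0 used a floor of 3 UMIs over the group. Named were all members of the mesothelial, ventricular, atrial and erythroid lists, the 3 most abundant members of each other list, and the highest 25, 15, 10 and 10 and the lowest 10 genes by ratio of the 4 comparisons with at least 50 CPM on the higher side (and UMIs in 5 cells of it for the last pair of comparisons). Predicted genes were counted and not named, and doublets were not called.

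Members, lists and limits were chosen with earlier results of these data known. The late red-cell list, the reads-per-UMI readout, the removal of erythroid genes from the total, the removal of top cells, the low-Myl2 comparison without cells over 20% erythroid and the LV and RV reference were added after values were seen. Other alternatives were the limits of the ranges, the total, TMM factors, read counts, equal weights, the UMI and gene minimums and leaving out each library. Promoter windows came from RefSeq on GRCm38.p6, with a match for 2639 of the 3387 genes compared, and marker positions from GENCODE. Scripts ran in Python 3.11.15 with numpy 2.4.6, pandas 2.3.3, scipy 1.17.1 and matplotlib 3.10.9, and R 4.3.3 with edgeR 4.0.16 for TMM factors only, and were tested on simulated data.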

Additional observations from a re-analysis of the deposited data

How the results depend on the processing

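No paired analysis was possible because the labels give 1 sample and no comparison had a test. Limits: cells of 1 sample show no spread between animals, the ranges depend on their minimums, and most LA cells were shallow. Low-Myl2 LA cells numbered 2 at the 1st percentile, 4 under 0.25 of the ventricular median, 5 with all gene UMIs as the total, 6 among cells of 5000 UMIs and 1 among cells of at least 5 sarcomere reads per UMI. Blood-rich cells numbered 9 at an erythroid share of 5%, 10 among cells of 5000 UMIs and 4 at 5 reads per UMI, where mesothelial-rich cells numbered 0. Leaving out 1 library gave 7 to 17 blood-rich, 7 to 13 low-Myl2, 1 to 2 mesothelial-rich and 13 to 25 plain cells.

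In each pair the first count is of genes at least 2-fold higher and the second of genes lower. For mesothelial-rich cells the pairs were 4657 and 4049 with no gene minimum, 178 and 463 at 100 UMIs, and 2697 and 4272 against LV and RV cells. For low-Myl2 cells they were 342 and 466 with TMM factors, 165 and 1955 in reads, 2067 and 5611 with no minimum and 24 and 423 at 100 UMIs, with 55 higher over all gene UMIs and 160 higher at equal weights. For blood-rich cells they were 554 and 1051 in reads, 1946 and 2296 with no minimum and 14 and 9 at 100 UMIs, with 573 lower at equal weights. For ventricular-like LA cells against LV and RV cells they were 628 and 2082 with 1 CPM added, 1036 and 3683 in reads and 124 and 469 at 100 UMIs, with 412 lower over all gene UMIs, 783 higher at equal weights, 698 higher with no minimum and 84 higher without top cells.

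Leaving out 1 library gave 325 to 989 higher and 761 to 1097 lower genes for mesothelial-rich cells, 52 to 99 and 735 to 1160 for low-Myl2, 148 to 206 and 229 to 279 for blood-rich, and 374 to 637 and 1083 to 1752 for ventricular-like cells. Fewer genes reach a minimum when cells or UMIs are left out, and otherwise the cause was not tested. Of the named genes' values, 2 reversed, Prkcb at −1.80 without library A and Unc50 at −1.29 without library B, with highest log2 ratios of 2.91 and 2.42 when another library was left out. The others kept their direction under the settings run for them. Values of named genes that moved past their interval numbered 32 for mesothelial-rich cells (421 did not), 64 for low-Myl2 (217), 29 for blood-rich (182) and 43 for ventricular-like cells (233).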
